A study of Mus musculus with 8 samples.

Results

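The proton pump of the lysosome and the enzymes that work in the acid it makes were read as 1 set of genes in mouse embryonic fibroblasts. The set was made of every gene whose symbol begins with Atp6v or Atp6ap, which are the subunits of the vacuolar proton pump and its helper proteins, and of 30 named lysosomal genes. These were 10 cathepsins, 10 other acid hydrolases, 3 lumenal cofactors, 6 membrane proteins and the transcription factor Tfeb. The rule named 53 genes, of which 52 had a probe, out of 16593 named genes on the arrays. Of these, 43 had a probe above the median of the probe means and were tested, out of 8832 tested genes.

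The study compared fibroblasts of the genotype EIF4E-KI, whose eIF4E cannot be phosphorylated (KI), with WT fibroblasts, in total cytoplasmic RNA and in heavy polysomal RNA. eIF4E is the cap-binding protein of translation initiation. Heavy polysomal RNA was pooled from the gradient fractions in which an mRNA carried over 3 ribosomes. There were 4 groups of 2 Illumina arrays: KI heavy polysomal, KI total, WT heavy polysomal and WT total RNA. Each genotype was 1 line, immortalized by passage after isolation from females at day 14.5 of pregnancy and grown in DMEM with 10% FBS, and the 2 arrays of a group came from 2 independent experiments on that line. Genotype and line therefore cannot be told apart, and p-values measure only the spread between experiments. The same mass of RNA, 250 ng, was labelled for every array, so a difference between polysomal and total RNA is relative to the other mRNAs of the sample.

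Lysosomes degrade proteins, lipids and sugars with hydrolases that work best in acid. The acid is made by the vacuolar ATPase, a rotary pump whose peripheral V1 sector splits ATP and whose membrane V0 sector carries protons. Most hydrolases are made at the endoplasmic reticulum and are sorted to lysosomes through mannose 6-phosphate, and the membrane is coated by glycoproteins such as LAMP1 and LAMP2. The transcription factor TFEB binds an E-box-like site near the start of many of these genes. The lysosomal surface is also where the pump, the Ragulator and the Rag GTPases bring mTORC1 into contact with its activators.

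The promoter letters are shown because many of these genes share that site. The letters TCACGTG were searched on both strands in RefSeq windows of 300 bases (250 before and 50 after the gene's start, build GRCm38.p6), each gene's reverse-strand match reading CACGTGA. Windows were on hand for 43 of the 52 members, and 9 members (Atp6v1b2, Atp6v1c1, Atp6v1g1, Atp6v1h, Atp6v0a2, Atp6v0d2, Ctsb, Ctsh and Asah1) had none. The letters stood in 11 of the 43 members (25.6%), in 4 of 17 pump genes (23.5%) and in 7 of 26 other members (26.9%). They stood in 7.05% of the 7216 tested genes with a window and in 4.29% of the 27025 genes with one. Among other lysosomal hydrolases and membrane proteins outside the set, they stood in 9 of 43 (20.9%). The core CACGTG alone, which lies inside TCACGTG, stood in 30.2% of members, against 20.9% of those other lysosomal genes, 12.0% of tested genes and 8.09% of all. The 5 stretches below are for Atp6v1a, Atp6v0b and Atp6v0e of the pump, for Lamp1, which had most sites, and for Glb1, chosen after its values were seen. Each is written 5′ to 3′ on the gene's own strand, with the site in capitals.
Atp6v1a, chr16:44139364-44139411, minus strand: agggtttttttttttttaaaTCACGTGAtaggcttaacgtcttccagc
Atp6v0b, chr4:117887322-117887386, minus strand: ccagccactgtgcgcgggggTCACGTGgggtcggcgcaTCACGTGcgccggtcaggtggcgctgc
Atp6v0e, chr17:26676378-26676415, plus strand: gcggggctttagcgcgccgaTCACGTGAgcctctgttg
Lamp1, chr8:13159079-13159171, plus strand: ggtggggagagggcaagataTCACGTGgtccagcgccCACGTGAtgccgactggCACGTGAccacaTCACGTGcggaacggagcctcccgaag
Glb1, chr9:114401009-114401055, plus strand: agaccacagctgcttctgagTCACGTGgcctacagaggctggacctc
The other members with the letters were Atp6v0d1, Ctsa, Ctsd, Gaa, Lgmn and Mcoln1. A match describes these letters only and is no measure of binding. Of the 18 members that passed a test below, 14 had a window and 4 of these had the letters.

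The values are processed signals read as log2, from 7.48 to 15.8, and the filter, the median of the probe means at 7.73, lies in the bottom band of the scale. Across all probes, the polysomal arrays correlated at 0.987 in KI and 0.991 in WT. The total arrays correlated at 0.975 in KI and 0.970 in WT. The arrays labelled WT total replicate 2 and KI total replicate 2 correlated more closely with each other, at 0.982, than each did with its own replicate. WT total replicate 1 correlated with KI total replicate 1 at 0.970. Fibroblast markers were present, with 10 of the 11 that had a probe above the filter and a list mean of 10.17 to 10.78 on the 8 arrays. Of the macrophage markers, 2 of 11 passed the filter, Ptprc, Adgre1, Itgam, Lyz2 and C1qa did not, and the list means were 7.80 to 7.88. Cd14, on that list, read 9.12 to 9.89 on the KI and 9.12 to 9.57 on the WT arrays. The only Eif4e probe read 7.76 and 7.76 in KI polysomal RNA and 7.67 and 7.76 in KI total RNA, against 8.66 and 8.44 in WT polysomal RNA and 7.82 and 7.76 in WT total RNA. A probe of this kind cannot show a point mutation, so it does not check the labels. In RNA from whole cultures, fewer cells with an mRNA and less of it per cell cannot be told apart.

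The lysosomal genes differed between the types of RNA, with calls in both directions, and gave no call between the genotypes. In KI cells 10 of 43 members rose in heavy polysomal over total RNA and 4 fell. limma with Benjamini-Hochberg adjustment over all 8832 genes called 37.1% of them in this comparison, at an adjusted p below 0.05. In WT cells 10 members rose and 6 fell, against 37.9% of all genes called. The members called, 14 and 16 of 43, are thus a share close to that of all genes. A total of 12 members were called in both lines, 8 higher and 4 lower, with 2 called in KI alone and 4 in WT alone. Over all 8832 genes, 2744 were called in both lines, 1570 higher and 1174 lower, with 534 in KI alone and 605 in WT alone. No test showed a difference between the lines for any of the members. The median member difference was 0.11 in KI and 0.16 in WT on the log2 scale, against 0.02 and -0.01 over all tested genes. When 1 array at a time was left out, 8 of the 14 KI calls held each time (Atp6v1a, Atp6v1h, Atp6v1d, Atp6v1f, Atp6v0b, Atp6ap2, Asah1 and Lamp1), as did 8 of the 16 WT calls (Atp6v1a, Atp6v1h, Atp6v1c1, Atp6v1f, Atp6v0b, Atp6v0e, Atp6ap2 and Asah1). Without WT total replicate 2, 10 members were called in WT (6 higher, 4 lower), with a median of 0.00, and Atp6v1g2, Ctsl, Hexa, Lamp1, Lamp2, Lipa and Neu1 lost their calls while Atp6v1g1 gained one. Among the members not called in WT, leaving out this array also took the difference to 0.30 for Atp6ap1, 0.69 for Atp6v1e1, -0.95 for Atp6v1g1 (the gained call), -0.24 for Atp6v0d1, -0.25 for Ctsz, 0.00 for Ctsk, 0.05 for Gusb, -0.06 for Ppt1 and 0.21 for Scarb2. Without WT total replicate 1, 18 were called, with Ctsh, Ctsk, Ctsz, Npc2 and Ppt1 gained and Ctsl, Lamp2 and Neu1 lost. Without WT polysomal replicate 2, 8 were called, and Atp6v1d was lost besides those 7. Without either KI polysomal array 9 were called in KI, with Atp6v0a2, Atp6v1e1, Hexa and Lipa lost both times, Atp6v0e lost without replicate 1 and Atp6v1c1 lost without replicate 2. Over all 8832 genes, too, fewer were called than with every array when a polysomal array of the line was left out. The same held in WT without WT total replicate 2. With the culture as a block, since polysomal and total RNA of a culture share a source name, 17 members were called in KI and 18 in WT.

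Among the pump genes the calls ran both ways, 7 higher and 3 lower of 18 in KI and 5 higher and 4 lower of 18 in WT. Over all tested genes 37.1% were called in KI and 37.9% in WT. Of the 11 V1 genes, 5 rose and 1 fell in KI, and 4 rose and 2 fell in WT. The catalytic subunit A, Atp6v1a, read 9.79 and 9.64 in KI polysomal RNA against 8.07 and 7.83 in KI total RNA, and 9.69 and 10.01 in WT polysomal RNA against 8.14 and 7.95 in WT total RNA. Every polysomal array lay above every total array. The log2 difference was 1.77 ± 0.16 (SE, 2 arrays per group) in KI, 3.41-fold higher, and 1.81 ± 0.16 in WT, with limma adjusted p of 0.00163 and 0.00165.

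Atp6v1h, the regulatory subunit H, read 11.07 and 11.09 in KI polysomal RNA against 9.77 and 9.86 in KI total RNA. In WT it read 10.82 and 11.11 in polysomal RNA against 9.73 and 9.58 in total RNA. The arrays lay apart in both lines, and the gene rose by 1.26 ± 0.12 in KI and 1.31 ± 0.12 in WT (limma adjusted p 0.00196 and 0.00181).

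Atp6v1d, a subunit of the rotor's central stalk, read 10.18 and 10.38 in KI polysomal RNA against 8.99 and 9.17 in KI total RNA, and 9.90 and 9.97 in WT polysomal RNA against 9.33 and 9.06 in WT total RNA. It rose in both lines, by 1.20 ± 0.13 in KI (limma adjusted p 0.00271) and 0.73 ± 0.13 in WT (0.00994). The difference between these was 0.46 ± 0.19, with an unadjusted p of 0.0502 and an adjusted p of 1. Atp6v1c1, subunit C, which joins the V1 and V0 sectors in the assembled pump, read 9.32 and 9.28 in KI polysomal RNA against 8.44 and 8.05 in KI total RNA, and 9.76 and 9.76 in WT polysomal RNA against 8.84 and 8.37 in WT total RNA. It rose by 1.05 ± 0.19 in KI and 1.16 ± 0.19 in WT (limma adjusted p 0.0101 and 0.00751).

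Atp6v1e1, subunit E of the peripheral stalk, read 12.99 and 12.76 in KI polysomal RNA against 12.16 and 11.87 in KI total RNA, and rose by 0.86 ± 0.21 (limma adjusted p 0.0248, 0.0582 without the filter on dim probes). In WT it read 12.54 and 12.24 against 11.69 and 12.18, a difference of 0.45 ± 0.21 that did not pass (0.146). The arrays of WT did not overlap, but the lowest polysomal and highest total values were almost equal. Atp6v1b2, the B subunit of most tissues, read 11.81 and 10.90 in KI polysomal RNA against 11.13 and 10.13 in KI total RNA. In WT it read 10.77 and 10.84 against 10.16 and 10.0. Its difference was 0.72 ± 0.41 in each line and did not pass without the culture block (limma adjusted p 0.218 in KI and 0.215 in WT), but passed with the block (0.0117 and 0.0118).

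The V1 subunit F gene went the other way. Atp6v1f read 11.76 and 11.52 in KI polysomal RNA against 13.41 and 13.16 in KI total RNA, and 11.76 and 11.25 in WT polysomal RNA against 13.32 and 13.70 in WT total RNA. It fell by 1.64 on the log2 scale in KI and by 2.00 in WT, with an SE of 0.22 in each (limma adjusted p 0.00435 and 0.00256). Atp6v1g2, a G subunit best known from the brain, read 7.77 and 7.67 in KI polysomal RNA against 7.75 and 7.93 in KI total RNA, and 7.74 and 7.78 in WT polysomal RNA against 8.20 and 8.36 in WT total RNA. It was above the bottom band only in the WT total arrays, and fell there by 0.52 ± 0.10 (limma adjusted p 0.0135), with no call in KI (difference -0.12 ± 0.10, 0.431). Another Atp6v1g2 probe, not above the filter, read 7.64 to 7.66 on all 8 arrays. Of the other V1 genes, Atp6v1g1 differed by -0.41 in KI and -0.55 in WT, while Atp6v1b1 and Atp6v1c2 stayed within 0.12 of 0 at the bottom of the scale, with no call.

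Of the 5 V0 genes, 1 rose and 2 fell in KI, and 0 rose and 2 fell in WT. Of all 8832 tested genes, 1897 rose and 1381 fell in KI, and 1859 rose and 1490 fell in WT. So few V0 genes do not show a direction of the sector. Atp6v0b, a proteolipid of the proton-carrying ring, read 10.35 and 10.27 in KI polysomal RNA against 11.88 and 12.28 in KI total RNA, and 10.77 and 10.79 in WT polysomal RNA against 12.09 and 12.42 in WT total RNA. It fell by 1.77 ± 0.17 in KI, a 3.40-fold drop, and by 1.48 ± 0.17 in WT (limma adjusted p 0.00198 and 0.00277). Atp6v0e, the small membrane subunit e, read 11.58 and 12.11 in KI polysomal RNA against 13.09 and 13.91 in KI total RNA, and 11.84 and 12.05 in WT polysomal RNA against 13.70 and 14.10 in WT total RNA. It fell by 1.65 ± 0.32 in KI and by 1.96 ± 0.32 in WT (limma adjusted p 0.0125 and 0.0075). For both genes the polysomal and total arrays lay well apart in each line.

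Atp6v0a2, one of the a subunits that line the proton path, read 10.50 and 10.53 in KI polysomal RNA against 10.28 and 10.16 in KI total RNA, and 10.33 and 10.29 in WT polysomal RNA against 10.39 and 10.25 in WT total RNA. Its rise of 0.29 ± 0.09 in KI was the weakest call (limma adjusted p 0.0484), and was lost under the culture block (0.0823). In WT the arrays overlapped. Atp6v0d1, subunit d, which couples the rotor to V1, differed by -0.14 ± 0.32 in KI and -0.62 ± 0.32 in WT, with no call. Atp6v0a1 differed by -0.29 in KI and -0.49 in WT on its tested probe (limma adjusted p 0.36 and 0.133), and the WT difference passed with the culture block (0.0366). Its dimmer probe above the filter, at 7.66 to 7.85, gave 0.02 in KI and -0.03 in WT, so the fall rests on 1 probe. The other V0 probes, for Atp6v0a4, Atp6v0d2 and Atp6v0e2, were not above the filter, nor were Atp6v1e2 and Atp6v1g3 of V1. Atp6v0c was not analysed here.

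The accessory protein Atp6ap2, the prorenin receptor, which helps to assemble the pump, had the largest rise of all members in both lines. It read 12.19 and 11.89 in KI polysomal RNA against 9.43 and 10.32 in KI total RNA, and 12.75 and 12.57 in WT polysomal RNA against 10.12 and 10.06 in WT total RNA. The log2 difference was 2.16 ± 0.29 in KI, 4.48-fold, and 2.57 ± 0.29 in WT, 5.93-fold (limma adjusted p 0.00425 and 0.00268). Its other 3 probes also rose, by 1.29 to 1.52 in KI and by 1.74 to 2.05 in WT. Atp6ap1, the other accessory protein, read 13.17 and 13.10 in KI polysomal RNA against 13.30 and 12.67 in KI total RNA, with overlap. In WT it read 13.49 and 13.36 against 13.13 and 12.52, a difference of 0.60 ± 0.27 that did not pass (limma adjusted p 0.131).

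**Figure D1:**
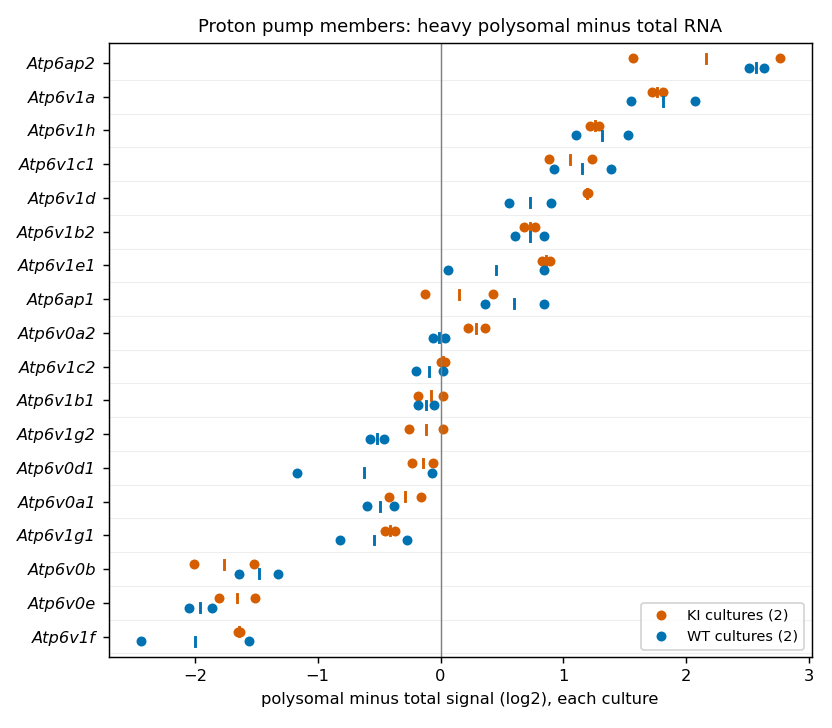
Polysomal minus total signal (log2) of each tested pump gene, with a point for each culture (KI and WT, 2 each) and a short line at each line's mean. Atp6ap2, Atp6v1a, Atp6v1h, Atp6v1c1 and Atp6v1d lie to the right of 0 in all 4 cultures, and Atp6v0b, Atp6v0e and Atp6v1f to the left in all 4.

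Of the 7 tested cathepsins, 0 were called between the RNA types in KI, and 1 rose in WT, against 37.1% and 37.9% of all genes. At an unadjusted p under 0.05 there were 0 in KI and 3 in WT, against 4189 and 4285 of all 8832 genes. Ctsl, the broad endopeptidase cathepsin L, read 7.79 and 7.68 in KI polysomal RNA against 7.56 and 7.69 in KI total RNA, and 7.96 and 7.98 in WT polysomal RNA against 7.68 and 7.66 in WT total RNA. Its rise in WT was 0.30 ± 0.09 (limma adjusted p 0.0395, 0.0905 with the culture block), and all its values lay in or near the bottom band, where a fold is understated. Ctsb, a cysteine protease, read 13.80 and 13.65 in KI polysomal RNA against 13.76 and 12.93 in KI total RNA. In WT it read 13.97 and 13.94 against 13.43 and 13.23, a difference of 0.62 ± 0.27 (limma adjusted p 0.117). Its WT polysomal arrays lay above the WT total ones, while the KI arrays overlapped. The KI difference was 0.38 ± 0.27 with every array, 0.80 without KI total replicate 1 and -0.04 without KI total replicate 2.

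Ctsd, the main aspartic protease of lysosomes, read 7.95 and 7.95 in KI polysomal RNA against 7.86 and 8.37 in KI total RNA, and 7.95 and 7.89 in WT polysomal RNA against 8.07 and 8.16 in WT total RNA. No difference passed. Ctsh, an aminopeptidase, read 7.76 and 7.82 in KI polysomal RNA against 7.66 and 7.83 in KI total RNA, and 8.40 and 8.09 in WT polysomal RNA against 8.69 and 9.83 in WT total RNA. Its WT difference of -1.02 ± 0.36 did not pass (limma adjusted p 0.0717). It was -0.44 (0.122) without the WT total replicate 2 array and passed without WT total replicate 1, at -1.59 (0.005). Ctsa, the protective protein of the sialidase and galactosidase complex, differed by -0.19 ± 0.13 in KI and -0.28 ± 0.13 in WT. Ctsz, a carboxypeptidase, differed by -0.08 ± 0.21 in KI and -0.52 ± 0.21 in WT (limma adjusted p 0.0981), and the WT difference passed with the culture block (0.0361). Ctsc, Ctsf and Ctss, the last best known from immune cells, were not above the filter.

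Among the 10 other hydrolases, 2 rose and 1 fell in KI, and 2 rose and 2 fell in WT, against 37.1% and 37.9% of all genes called. Asah1, acid ceramidase, which cleaves ceramide to sphingosine, read 12.76 and 12.83 in KI polysomal RNA against 10.57 and 11.09 in KI total RNA, and 12.23 and 12.01 in WT polysomal RNA against 10.34 and 10.76 in WT total RNA. It rose by 1.96 ± 0.22 in KI, 3.90-fold, and by 1.57 ± 0.22 in WT (limma adjusted p 0.00272 and 0.00466). A dimmer probe for the same transcript also rose, by 1.01 in KI and 0.67 in WT.

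Lipa, the acid lipase of cholesterol esters, read 8.10 and 8.27 in KI polysomal RNA against 7.68 and 7.77 in KI total RNA, and 8.31 and 8.31 in WT polysomal RNA against 8.0 and 7.76 in WT total RNA. It rose by 0.46 ± 0.11 in KI and 0.43 ± 0.11 in WT (limma adjusted p 0.0253 and 0.031), from total signals close to the bottom band. Hexa, the alpha subunit of the hexosaminidase that degrades GM2 ganglioside, read 10.63 and 10.79 in KI polysomal RNA against 11.22 and 11.55 in KI total RNA, and 10.41 and 10.47 in WT polysomal RNA against 11.01 and 11.19 in WT total RNA. It fell by 0.68 ± 0.14 in KI and by 0.66 ± 0.14 in WT (limma adjusted p 0.0142 and 0.0152), nearly the same in both lines.

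Neu1, the lysosomal sialidase, read 10.13 and 9.52 in KI polysomal RNA against 10.30 and 10.36 in KI total RNA, and 9.73 and 9.19 in WT polysomal RNA against 10.21 and 10.54 in WT total RNA. It fell in WT by 0.91 ± 0.27 (limma adjusted p 0.0417, 0.0603 with the culture block), and the KI difference of -0.50 ± 0.27 did not pass (0.194). Its polysomal arrays were below its total arrays in both lines. Gusb, the beta-glucuronidase, is uncertain, because its probes disagreed. The brightest one differed by 0.61 ± 0.22 in KI (limma adjusted p 0.0758, 0.0493 with the culture block) and 0.32 ± 0.22 in WT. Another differed by 0.20 and 0.09, and the remaining one by -0.56 ± 0.11 in KI and -0.63 ± 0.11 in WT (limma adjusted p 0.0132 and 0.00921 when every probe was tested).

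Of the other hydrolases, Lgmn, the asparaginyl endopeptidase, read 10.44 and 10.59 in KI polysomal RNA against 10.11 and 9.90 in KI total RNA, and 9.99 and 9.91 in WT polysomal RNA against 9.54 and 10.30 in WT total RNA. The KI arrays lay apart and the WT arrays overlapped. Ppt1, which removes fatty acids from proteins, Tpp1, a tripeptidyl peptidase, Glb1, the beta-galactosidase, and Gaa, the acid alpha-glucosidase, had differences from -0.16 to 0.36 in the 2 lines, with no call.

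The 3 lumenal cofactors gave no call. Psap, the precursor of the saposins that activate sphingolipid hydrolases, read 12.73 and 12.85 in KI polysomal RNA against 13.29 and 13.05 in KI total RNA, and 13.14 and 13.60 in WT polysomal RNA against 13.19 and 13.22 in WT total RNA. Its difference was -0.38 ± 0.17 in KI and 0.16 ± 0.17 in WT. Npc2, which carries cholesterol out of the lumen, read 11.12 and 11.15 in KI polysomal RNA against 11.63 and 11.56 in KI total RNA, and 10.84 and 10.86 in WT polysomal RNA against 10.90 and 11.47 in WT total RNA. The polysomal values of Npc2 were lower, with a difference of -0.46 ± 0.18 in KI (limma adjusted p 0.102) and -0.33 ± 0.18 in WT (0.211), and neither passed. The WT difference was -0.04 (0.8) without WT total replicate 2 and passed without WT total replicate 1, at -0.62 (0.00899). The KI difference passed when either WT total array was left out (0.0104), which changes only the shared spread. Grn, progranulin, differed by -0.13 in KI and 0.29 in WT, with overlapping arrays, and by 0.00 in WT without WT total replicate 2.

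The membrane glycoproteins LAMP1 and LAMP2 had higher polysomal values in both lines. Lamp1 read 12.91 and 12.89 in KI polysomal RNA against 12.30 and 12.08 in KI total RNA, and 12.54 and 12.75 in WT polysomal RNA against 12.12 and 12.03 in WT total RNA. It rose by 0.71 ± 0.12 in KI and 0.57 ± 0.12 in WT (limma adjusted p 0.00744 and 0.0144). Lamp2, which is also needed for autophagy, read 12.16 and 12.35 in KI polysomal RNA against 9.92 and 11.62 in KI total RNA, and 12.78 and 12.73 in WT polysomal RNA against 10.67 and 10.80 in WT total RNA. The rise of 2.02 ± 0.51 passed in WT (limma adjusted p 0.0265), and the KI difference of 1.49 ± 0.51 did not (0.0663), though it did with the culture block (0.0385). Its KI total arrays lay far from each other. When every probe was tested, the other 3 Lamp2 probes passed in both lines, with differences of 1.44 to 1.95 in KI and 1.89 to 2.50 in WT.

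Mcoln1, a calcium channel of the lysosomal membrane, read 8.57 and 8.83 in KI polysomal RNA against 9.0 and 9.61 in KI total RNA, and 8.54 and 8.59 in WT polysomal RNA against 9.06 and 9.44 in WT total RNA. Its difference of -0.61 ± 0.23 in KI and -0.69 ± 0.23 in WT missed the threshold (limma adjusted p 0.0918 and 0.0637) and passed with the culture block (0.0345 and 0.0252). Scarb2, the receptor that brings glucocerebrosidase to lysosomes, read 9.34 and 9.0 in KI polysomal RNA against 9.04 and 8.48 in KI total RNA, and 8.83 and 8.84 in WT polysomal RNA against 8.62 and 8.33 in WT total RNA. Its arrays overlapped in KI but not in WT, with differences of 0.41 and 0.36 and no call. Cd63, a tetraspanin, read 14.61 and 14.54 in KI polysomal RNA against 14.33 and 14.55 in KI total RNA, and 14.55 and 14.84 in WT polysomal RNA against 14.72 and 14.51 in WT total RNA on its brightest probe. This gave 0.13 in KI and 0.08 in WT, with overlap, while its other probes gave -0.43 and -0.84 in KI and -0.33 and -0.10 in WT, so its direction is uncertain. Npc1 was not analysed here, and neither Tfeb probe was above the filter.

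**Figure D2:**
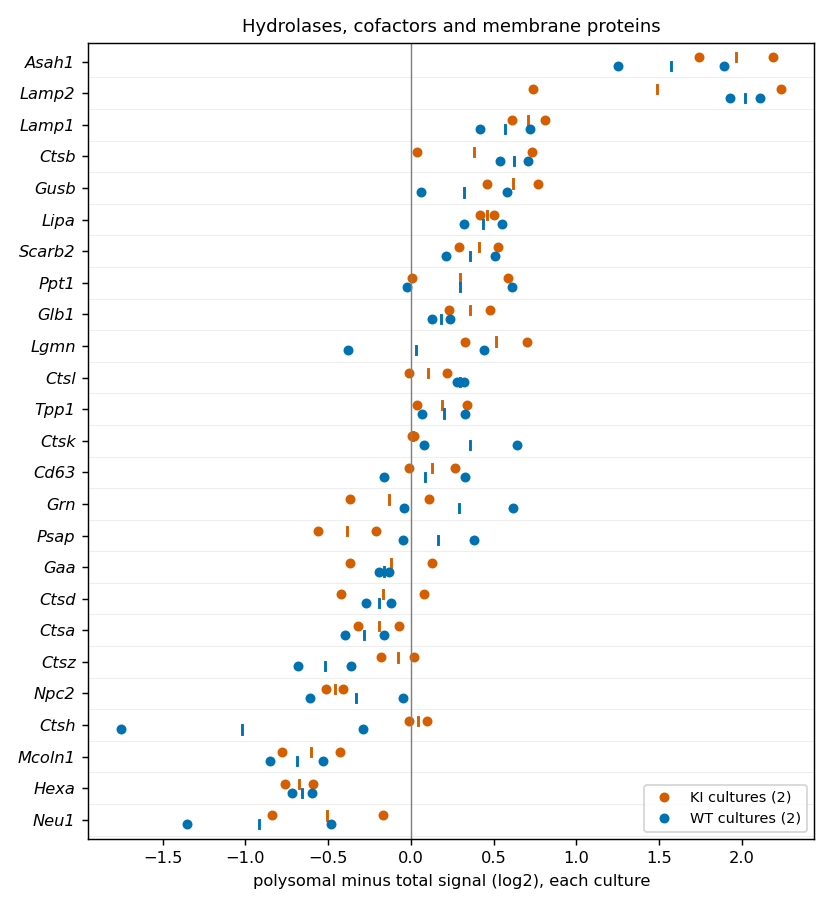
Polysomal minus total signal (log2) of each tested member outside the pump, with a point for each culture (KI and WT, 2 each) and a short line at each line's mean. Asah1 and Lamp1 lie to the right of 0 in all 4 cultures, and Hexa, Neu1 and Mcoln1 lie to the left in all 4.

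Across the 43 members, the difference between RNA types in KI correlated with that in WT at a Pearson r of 0.94 and a Spearman rho of 0.90, beside 0.95 and 0.93 over the 8832 tested genes. The same sign was found for 38 members (88.4%), against 86.4% of tested genes. These are descriptions, since genes are not independent replicates and the arrays share their processing.

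Between the genotypes 0 of 43 members passed in total RNA, where limma called 0.113% of all genes at an adjusted p below 0.05 (10 genes). At an unadjusted p under 0.05 there were 4 members, against 9.07% of all genes. In total RNA 19 members were higher in KI and 24 lower, where 39.8% of all genes were higher, with a median difference of -0.05, against -0.04 over all tested genes. The arrays of 10 members did not overlap between KI and WT total RNA, a share below the 31.9% of all genes. In polysomal RNA 0 of 43 members passed, where limma called 0.0566% of all genes (5 genes). There, 9 members had an unadjusted p under 0.05, against 11.5% of all genes, and 26 had arrays that did not overlap, against 52.5%. A total of 21 members were higher in KI polysomal RNA and 22 lower, where 46.0% of all genes were higher, with a median of 0.00, against -0.01 over all tested genes. Without WT total replicate 2, several uncalled differences in total RNA moved by over 1.5 times, to -0.20 for Atp6v0e, 0.78 for Atp6v0d1, 0.49 for Asah1, -0.55 for Gusb, -0.73 for Atp6v1g1, -0.59 for Atp6v1c1, 0.14 for Scarb2 and -0.75 for Ctsk. Counts of 0 from 2 arrays per group do not show that the lines are alike.

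Ctsh had the largest difference between the lines in total RNA. It read 7.66 and 7.83 in KI total RNA against 8.69 and 9.83 in WT total RNA, and 7.76 and 7.82 in KI polysomal RNA against 8.40 and 8.09 in WT polysomal RNA. All 4 KI values lay near the bottom band, and all 4 WT values were above them. The total difference was -1.52 ± 0.36, 2.86-fold lower in KI, with an unadjusted p of 0.00597 and a limma adjusted p of 0.33. It was -2.09 without the WT total replicate 1 array and -0.94 without WT total replicate 2. On the same arrays the epithelial marker Krt19 read 7.67 and 7.67 in KI total RNA against 8.32 and 9.80 in WT total RNA, while Krt8, the other epithelial marker above the filter, read 8.04 and 8.17 in KI total RNA against 8.09 and 8.15 in WT total RNA. The epithelial list had 2 of 4 probes above the filter, its mean was 7.72 to 7.79 on the KI arrays and 7.71 to 8.33 on the WT arrays, and its part in the Ctsh values was not tested.

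Ctsk, the collagen-degrading cathepsin of osteoclasts and fibroblasts, read 7.65 and 7.67 in KI polysomal RNA against 8.47 and 8.30 in WT polysomal RNA, and 7.63 and 7.64 in KI total RNA against 8.39 and 7.66 in WT total RNA. WT total replicate 2 stood with the KI arrays at the bottom of the scale, and the other 3 WT arrays stood above them. Those 3 arrays alone read above the filter of 7.73, so the gene was tested only through WT. The polysomal difference was -0.73 ± 0.23, 1.65-fold lower in KI (limma adjusted p 0.315). Mmp9, a marker on the osteoclast list, read 8.23 and 7.87 in KI polysomal RNA against 10.21 and 9.42 in WT polysomal RNA, and 8.48 and 7.95 in KI total RNA against 10.23 and 7.97 in WT total RNA. On that list 3 of 6 markers passed the filter, Calcr, Ocstamp and Dcstamp did not, Tnfrsf11a and Oscar read 7.68 to 7.79 on the 8 arrays, and the list mean was 7.73 to 7.83 on the KI arrays and 7.73 to 8.12 on the WT arrays. Dcn, a fibroblast marker, read 10.96 and 10.62 in KI polysomal RNA against 13.89 and 14.05 in WT polysomal RNA, and 8.68 and 8.56 in KI total RNA against 11.91 and 8.09 in WT total RNA. Most of its list ran the other way. Of the 10 tested fibroblast markers, 8 were higher and 2 lower in KI polysomal RNA (median 0.75). In total RNA 7 were higher and 3 lower in KI (median 0.53). The part of these markers in the Ctsk values was not tested.

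The remaining cathepsins differed less. Ctsa read 8.37 and 8.42 in KI polysomal RNA against 8.79 and 8.57 in WT polysomal RNA, and 8.44 and 8.74 in KI total RNA against 8.95 and 8.97 in WT total RNA. Its differences were -0.28 ± 0.13 in polysomal and -0.37 ± 0.13 in total RNA (limma adjusted p 0.484 and 0.483). On this probe each KI array was below each WT array of the same RNA type. Another Ctsa probe above the filter gave -0.04 in polysomal and -0.32 in total RNA, and the remaining one -0.04 and -0.08. The total arrays of both overlapped between the lines. Ctsz ran the other way in polysomal RNA, with 10.09 and 9.98 in KI against 9.41 and 9.63 in WT, and overlapped in total RNA, with 10.27 and 9.96 in KI against 9.77 and 10.30 in WT. Both of its probes gave a polysomal difference of 0.52 (limma adjusted p 0.423 for the tested one). Ctsl differed by -0.24 ± 0.09 in polysomal RNA (0.374), Ctsb by -0.23 ± 0.27 and Ctsd by 0.03 ± 0.17, and in total RNA these 3 lay within 0.05 of 0.

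Glb1, whose enzyme is the familiar senescence-associated beta-galactosidase when it accumulates, was the member with the smallest p in polysomal RNA. It read 11.12 and 10.64 in KI polysomal RNA against 9.89 and 9.94 in WT polysomal RNA, and 10.89 and 10.15 in KI total RNA against 9.75 and 9.70 in WT total RNA. Each KI array was above each WT array, and the KI replicates lay further apart than the WT ones. The difference was 0.96 ± 0.27 in polysomal RNA, 1.95-fold higher in KI (limma adjusted p 0.274), and 0.80 ± 0.27 in total RNA (0.47).

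Asah1 was higher in KI polysomal RNA, with 12.76 and 12.83 in KI against 12.23 and 12.01 in WT, by 0.67 ± 0.22 (limma adjusted p 0.319). In total RNA its arrays overlapped, with 10.57 and 11.09 in KI against 10.34 and 10.76 in WT. The dimmer probe gave 0.28 in polysomal and -0.05 in total RNA. Lgmn differed by 0.56 ± 0.25 in polysomal RNA (limma adjusted p 0.459) and by 0.08 in total RNA, and Hexa by 0.27 and 0.29. For the other hydrolases (Gaa, Gusb, Lipa, Neu1, Ppt1 and Tpp1) the differences ran from -0.28 to 0.36, with no call.

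Psap was lower in KI polysomal RNA, with 12.73 and 12.85 in KI against 13.14 and 13.60 in WT, by 0.58 ± 0.17 (limma adjusted p 0.282). In total RNA it read 13.29 and 13.05 in KI against 13.19 and 13.22 in WT, with overlap. Npc2 ran higher in KI, with 11.12 and 11.15 against 10.84 and 10.86 in WT polysomal RNA, and 11.63 and 11.56 against 10.90 and 11.47 in WT total RNA. Its differences of 0.28 ± 0.18 and 0.41 ± 0.18 did not pass. The total one was 0.70 (limma adjusted p 0.0662) without WT total replicate 2 and 0.13 (0.729) without WT total replicate 1. Grn read 11.79 and 11.78 in KI total RNA against 11.63 and 11.05 in WT total RNA, a difference of 0.44 ± 0.23 that was 0.15 without WT total replicate 2 and 0.73 without replicate 1. It read 11.90 and 11.41 in KI polysomal RNA against 11.59 and 11.68 in WT polysomal RNA, with overlap and a difference of 0.02.

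In the pump, Atp6v0d1 was the member with the largest polysomal difference. It read 11.99 and 12.37 in KI polysomal RNA against 11.47 and 11.15 in WT polysomal RNA, and 12.04 and 12.61 in KI total RNA against 11.55 and 12.32 in WT total RNA. The polysomal arrays did not overlap and the total arrays did. The difference was 0.87 ± 0.32, 1.83-fold higher in KI (limma adjusted p 0.391), and its 4 probes gave 0.81 to 1.04. Atp6v0b was lower in KI polysomal RNA by 0.47 ± 0.17 (limma adjusted p 0.382), and Atp6v1d was higher by 0.35 ± 0.13 (0.4). Atp6ap2 was lower by 0.62 ± 0.29 (limma adjusted p 0.5), and its other 3 probes gave -0.63 to -0.76.

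In total RNA the pump gene with the smallest p was Atp6v1g2, with 7.75 and 7.93 in KI against 8.20 and 8.36 in WT, a difference of -0.44 ± 0.10 (unadjusted p 0.00578, limma adjusted p 0.329). Its other probe, not above the filter, stayed at 7.64 to 7.66 on every array. Atp6v1b2 read 11.13 and 10.13 in KI total RNA against 10.16 and 10.0 in WT total RNA, and 11.81 and 10.90 in KI polysomal RNA against 10.77 and 10.84 in WT polysomal RNA. KI replicate 1 stood above the rest in both RNA types, and the difference of 0.55 ± 0.41 in each did not pass. Atp6v1c1 was lower in KI by 0.46 ± 0.19 in polysomal and 0.36 ± 0.19 in total RNA. Atp6v1e1 was higher in KI polysomal RNA by 0.49 ± 0.21, and differed by 0.07 in total RNA. None of these passed.

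**Figure D3:**
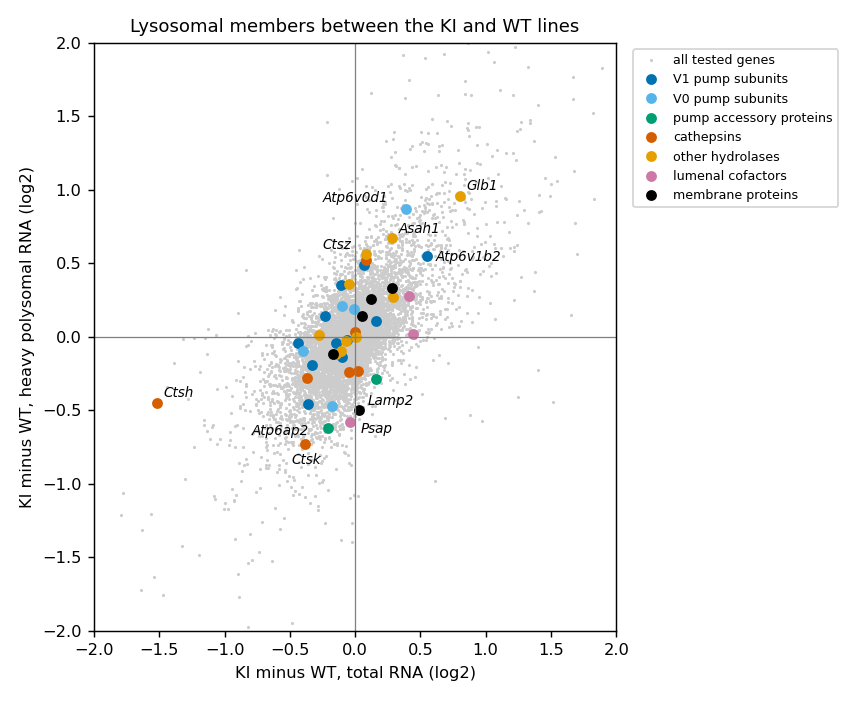
KI minus WT difference of each tested gene (log2) in total RNA on the horizontal axis and in heavy polysomal RNA on the vertical axis, with the 43 members coloured by role and all tested genes in grey (39 lie beyond the axes). Among the members Ctsh lies farthest to the left and Glb1 farthest up, and 0 members passed the test in either RNA.

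Among the membrane proteins the genotype gave no call. Lamp1 was higher in KI polysomal RNA by 0.26 ± 0.12 (limma adjusted p 0.477), with each KI array above each WT array. Lamp2 was lower in KI polysomal RNA by 0.50 ± 0.51 (0.867) on the tested probe and by 0.49 on another probe of the same RefSeq transcript. A pair of probes assigned to another Lamp2 transcript gave -1.09 ± 0.37 and -1.0 ± 0.39 (limma adjusted p 0.369 and 0.429 when every probe was tested). One of that pair read 10.11 and 10.39 in KI polysomal RNA against 11.28 and 11.40 in WT polysomal RNA, and 8.62 and 8.86 in KI total RNA against 9.81 and 8.62 in WT total RNA. The difference between the transcripts was not tested. Mcoln1, Scarb2 and the brightest Cd63 probe differed by -0.12 to 0.33 in polysomal and -0.17 to 0.28 in total RNA. Another Cd63 probe gave -0.18 in polysomal and -0.08 in total RNA, and the remaining one -0.35 and 0.38.

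**Figure D4:**
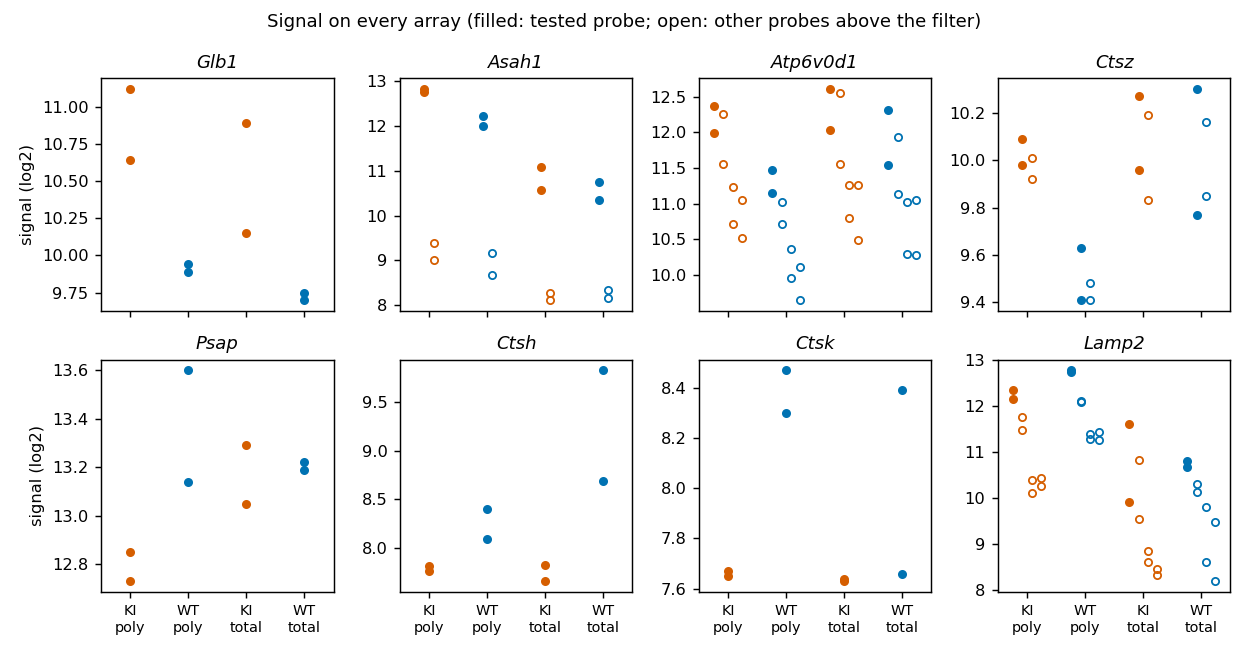
Signal (log2) on each of the 8 arrays for Glb1, Asah1, Atp6v0d1, Ctsz, Psap, Ctsh, Ctsk and Lamp2, with KI in orange, WT in blue, polysomal (poly) left of total RNA, filled points for the tested probe and open points for other probes above the filter. Glb1 is higher and Ctsh lower in KI than in WT on every array, and WT total replicate 2 stands with the KI arrays for Ctsk.

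Polysomal loading, the KI polysomal minus total difference less that of WT, was called for 0 of 43 members, where limma called 0.0% of all genes. At an unadjusted p under 0.05 there was 1 member, against 2.25% of all genes. That member was Atp6v1g2, at 0.40 ± 0.15 (limma unadjusted p 0.0355) on its tested probe, whose WT total arrays alone were above the bottom band. Psap had -0.55 ± 0.24 and Ctsh 1.06 ± 0.51, and the adjusted p was 1 for every member. The median over members was 0.05, beside 0.03 over all tested genes.

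Lysosomal genes outside the set also gave no call between the lines. Over all tested genes limma called only 0.113% in total and 0.0566% in polysomal RNA, so 0 calls in a short list says little about that list. Of 20 further hydrolases 0 were called in either RNA, and Man2b1, the acid alpha-mannosidase, was the closest. It read 10.45 and 10.82 in KI polysomal RNA against 9.65 and 9.66 in WT polysomal RNA, and 10.34 and 10.59 in KI total RNA against 9.77 and 9.91 in WT total RNA. Every KI array was above every WT array, with a polysomal difference of 0.98 ± 0.15 (limma adjusted p 0.113). Further lists with 0 calls between the lines were 14 other membrane proteins, 16 sorting receptors and coat proteins, 13 genes of Ragulator, the Rag GTPases and mTORC1, and 21 autophagy genes. On the membrane list Cd164 differed by -0.68 in total and -0.75 in polysomal RNA (KI minus WT), and Laptm4a by 0.28 and 0.21. Vps26a of the sorting list differed by -0.49 and -0.71, and Ap3d1 by 0.35 and 0.88. Among autophagy genes Atg5 differed by -0.66 and -0.87, and Rab7 by 0.1 and 0.24. For Ragulator and mTORC1, Rragb differed by -0.09 and -0.63, and Mlst8 by -0.5 and -0.53.

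Between the RNA types, where 37.1% of all genes were called in KI and 37.9% in WT, the further hydrolases had 0 higher and 2 lower in KI, and 0 higher and 3 lower in WT. The membrane list had 2 higher and 3 lower in KI and 4 higher and 3 lower in WT, and Cd164, a sialomucin of endosomes and lysosomes, rose by 1.98 ± 0.37 in KI and 2.05 ± 0.37 in WT (limma adjusted p 0.0105 and 0.00949). The sorting list had 5 higher and 2 lower in KI and 5 higher and 3 lower in WT. Its member Vps26a, of the retromer that returns sorting receptors to the Golgi, rose by 2.39 ± 0.15 in KI and 2.61 ± 0.15 in WT (limma adjusted p 0.00091 and 0.000706). The Ragulator and mTORC1 list had 3 higher and 3 lower in KI and 4 higher and 3 lower in WT, and the autophagy list 3 higher and 3 lower in KI and 3 higher and 4 lower in WT. Atg5, which is needed to attach LC3 to membranes, rose by 1.12 ± 0.19 in KI and 1.34 ± 0.19 in WT (limma adjusted p 0.00776 and 0.00469). The other gene picked from each list of Cd164, Vps26a and Atg5 gave no call between the RNA types. Laptm4a differed by -0.34 in KI and -0.27 in WT, Ap3d1 by 0.17 and -0.36, and Rab7 by 0.31 and 0.17.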

How the data were processed

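RNA was measured on 8 Illumina arrays, 4 groups of 2. The deposited log2 values, 1 column per array, were processed by the authors, and the labels name the R package lumi. The log base was taken from the range of the values. What transform, background correction or normalization was applied is not given in the sources used here. If the base is another, each log2 difference changes with it. A second table held the same values (equal within 1e-06) in 8 columns under names that no label gives, and these 8 columns were not used.

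Of 25697 probes, 23978 had 1 gene symbol, and 12848 had a mean above 7.73, the median of the probe means. Each gene was represented by its brightest probe, which gave 8832 genes. The means of the 4 groups were fitted over 8 arrays with limma 3.58.1 under R 4.3.3 (lmFit and eBayes, 4 residual and 1.8 prior degrees of freedom), with two-sided p-values and Benjamini-Hochberg adjustment over all tested genes. The fit was tested on simulated data. Errors are limma standard errors, and with arrays their number limits the precision. The members and lists were chosen with earlier results of these data known.

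Values on every array were given for members called in any comparison, for the 2 with the smallest p of each role in each comparison and for Ctsb, Ctsd, Ctsl, Lamp1, Lamp2 and Mcoln1 (Tfeb was listed too, but its probes were not above the filter). From each further list up to 2 genes were named, by smallest p between the lines. Other genes named were chosen after their values were seen. Polysomal and total RNA of a culture share a source name. Deviations from the group means of such pairs correlated across genes at 0.58 in KI and 0.05 in WT, and the culture block is given beside calls it changes.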

Additional observations from a re-analysis of the deposited data

How the results depend on the processing

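With 2 arrays per group and 1 line per genotype, precision is limited, and signals near 7.73 have understated folds. Calls of members between the lines and in loading stayed at 0 under every alternative run. The counts of all genes called that moved by over 1.5 times were, for KI against WT in total RNA (10 genes), 55 with trend and robust eBayes, 5 with every probe tested and 0 with the compared groups alone (457 at an unadjusted p under 0.05); in polysomal RNA (5 genes) they were 73 with trend and robust eBayes, 9 without the filter on dim probes, 8 with the compared groups alone, 28 with a stricter filter and 13 with the replicate block. KI and WT share only a replicate number, and their deviations had correlations of 0.39 (total) and 0.24 (polysomal). With the replicate block, 17 members were called between the RNA types in KI and 17 in WT, beside 14 and 16. Between the RNA types, settings other than leaving out an array ended the calls of Atp6v0a2, Atp6v1e1 and Lipa in KI, and of Ctsl, Hexa, Lamp1, Lamp2, Lipa and Neu1 in WT, and a stricter filter left Atp6v1g2 untested.

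Leaving out 1 array at a time gave 0 to 40 genes called between the lines in total RNA, 0 to 56 in polysomal RNA, 1414 to 3533 for polysomal against total RNA in KI, 1407 to 3481 in WT and 0 to 7 in loading, and 9 to 18 members called in KI and 8 to 18 in WT. In WT the fewest members, 8, were called without WT polysomal replicate 2. The values without each array crossed 0 for small differences, none of which had passed with every array in the fit. For KI against WT in total RNA these ranged from -0.15 to 0.48 for Atp6ap1, -0.66 to 0.23 for Atp6ap2, -0.81 to 0.01 for Atp6v0e, -0.40 to 0.43 for Ctsb, -0.25 to 0.25 for Ctsd, -0.11 to 0.01 for Ctsl, -0.82 to 0.88 for Lamp2, -0.25 to 0.35 for Mcoln1 and 0.00 to 0.57 for Scarb2. For polysomal against total RNA they ranged in KI from -0.17 to 0.46 for Atp6ap1, -0.04 to 0.80 for Ctsb and -0.42 to 0.09 for Ctsd, and in WT from -0.08 to 0.06 for Atp6v0a2. For loading they ranged from -0.85 to 0.04 for Atp6ap2, -0.66 to 0.18 for Ctsb, -0.22 to 0.28 for Ctsd, -1.38 to 0.32 for Lamp2 and -0.22 to 0.39 for Mcoln1. These ranges cover only the members picked by the rule above for each comparison, and others also crossed 0. Lgmn, between the lines in total RNA, was -0.29 without WT total replicate 1 and 0.46 without WT total replicate 2. Between the RNA types in WT it was -0.35 and 0.41.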
